A study of Mus musculus with 35 samples.

Results

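The genes described here are 36 named members of glycolysis, the pentose phosphate pathway and glycogen metabolism, out of 55421 gene identifiers in the count table. They were chosen by name, from glucose uptake to lactate, and all 36 were found in the table. Aldoa had 2 identifiers, of which the one with 321942 counts was used and the other held 2 counts in all. RNA was measured in the interscapular brown adipose tissue (iBAT) of 35 male C57BL/6J mice aged 9 to 10 weeks. Of these, 5 mice stayed at colony room temperature (24 °C, called RT below), and 30 were kept at 6 °C in 6 groups of 5, the shortest exposure lasting 6 hours and the others from 1 day to 5 days in steps of 1 day. The labels name no transgene or drug, and each library came from 1 pad from which adjoining white fat had been cut away. Cold-exposed mice were housed singly without nesting material, so the effects of temperature and of housing cannot be told apart.

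Brown adipocytes burn fuel to make heat, and glucose is one of the fuels they take up when sympathetic nerves are active. Glucose enters through transporters, is trapped by hexokinase, and then passes down glycolysis to pyruvate, into the pentose phosphate pathway, which makes NADPH for fatty acid synthesis and ribose for nucleotides, or into glycogen. Many steps are served by isozymes encoded by separate genes that differ in their regulation and in the tissue where they prevail, which is why members are described below by step and by isozyme.

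Libraries were made with a kit that reads the end of each polyadenylated transcript, so a count does not grow with transcript length and levels are given as CPM, a gene's reads relative to the library's total, scaled across all 35 libraries with the trimmed mean of M values (TMM). Between 3846016 and 6047247 reads were counted per mouse, of which mitochondrial genes took between 33.6% and 46.2%. No 2 libraries of the same group agreed within sampling noise. Brown adipocyte markers were high throughout, with a summed level of their 8 genes between 12867 and 24102 CPM over all mice, and Ucp1, the uncoupling protein, went from 1921 ± 614 CPM (mean ± SD, n = 5) in RT controls to 7265 ± 1041 CPM after 6 hours. Other cell types were present too. The 12 skeletal muscle markers summed to between 155 and 1348 CPM in RT controls and between 49.8 and 1454 CPM in cold-exposed mice, and none of the 12 was at 0 in any group. The 8 macrophage markers summed to between 73.6 and 179 CPM in RT controls and between 149 and 514 CPM after 3 days. The 5 endothelial markers summed to between 240 and 299 CPM in RT controls, 415 and 501 CPM after 6 hours and 484 and 575 CPM after 1 day. Of the 5, 2 were higher and 1 lower after 6 hours, against 21.5% and 21.0% of all genes tested. The 5 markers of white-like adipocytes summed to between 61.7 and 112 CPM in RT controls, 159 and 251 CPM after 6 hours and 168 and 449 CPM after 1 day, so that for both lists these cold-exposed mice were above all controls. The 5 erythroid markers summed to between 1826 and 2344 CPM in RT controls. Their sums were 2500 to 4516 CPM after 1 day and 2701 to 5005 CPM after 5 days, above all controls, and overlapped with controls at the other durations. The 4 stromal markers summed to between 271 and 519 CPM in RT controls. After 1 day they were at 168 to 239 CPM, below all controls, and they overlapped with controls at the other durations. The part of these cells in the members' calls was not tested. In such whole-tissue libraries, fewer cells of a type and less RNA per cell cannot be told apart.

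The members' share of all counts was 0.549% ± 0.10 (n = 5) in RT controls. It was 0.619% ± 0.049 at 6 hours, 0.826% ± 0.124 at 1 day, 0.700% ± 0.121 at 2 days and 0.701% ± 0.076 at 3 days. It was 0.837% ± 0.080 at 4 days and 0.914% ± 0.108 at 5 days. Each duration was compared with the RT controls in edgeR's quasi-likelihood test, and a gene is called higher or lower where its p-value, adjusted by Benjamini-Hochberg over all genes tested, was below 0.05. Of the 36 members, 33 passed the filter on low counts in every comparison, while Aldoc, Pfkfb2 and Pfkfb4 did not. After 6 hours, 17 of the 33 (51.5%) were higher, against 21.5% of all 10593 genes tested, and 7 (21.2%) were lower, against 21.0%. The share of lower members after 6 hours was thus close to that of all genes. After 1 day, 23 members were higher, against a background of 18.9%, and 3 were lower, against 17.8%.

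With longer exposure the number of higher members stayed between 21 and 26 and the number of lower members at 3. After 2 days, 22 members were higher (background 16.4%) and 3 lower (14.7%). After 3 days, 21 were higher (18.3%) and 3 lower (15.5%). After 4 days, 24 were higher (19.4%) and 3 lower (18.6%). After 5 days, 26 of 33 (78.8%) were higher, against 20.2% of all genes, and 3 (9.1%) were lower, against 18.6%. The median log2 fold change of the 33 members was 0.37 at 6 hours and 0.88 at 1 day, dropped to 0.53 at 3 days and stood at 0.91 at 5 days, while that of all genes tested lay between -0.03 and -0.01 in all 6 comparisons. Because the 5 RT controls enter each of these comparisons, the 6 results depend on one another. Scaling by library size alone, without TMM factors, lowered the number of higher members to 11 after 6 hours and to 13 after 2 days, and raised that of lower members from 3 to 5 after 5 days. Of all genes tested, that scaling called 1342 of 10593 higher after 6 hours in place of 2280. After 2 days it called 931 of 10629 higher in place of 1748, and after 5 days 3347 of 10733 lower in place of 1998.

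**Figure D1:**
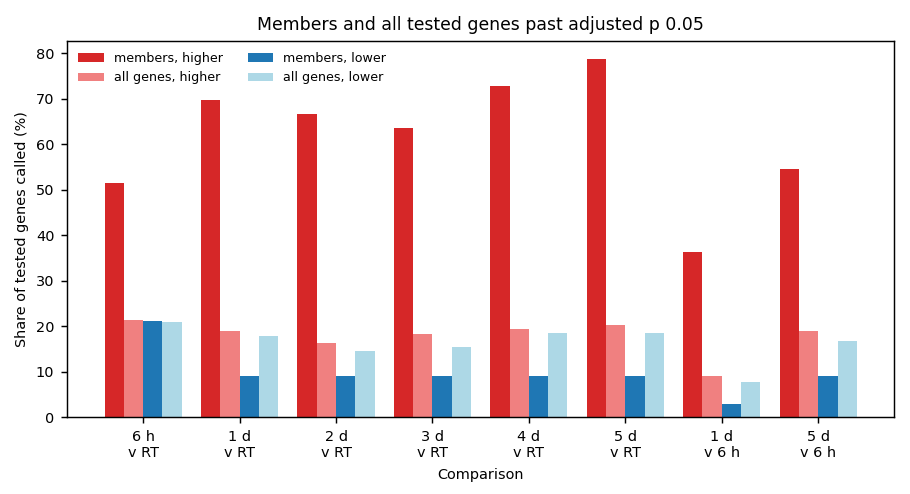
Share of genes called higher or lower (y axis, percent of genes tested) in each of 8 comparisons (x axis), for the 33 tested members (dark bars) and for all genes tested (light bars), with red for higher and blue for lower. Members were called higher more often than all genes in each comparison, for example 78.8% against 20.2% after 5 days, while the share called lower after 6 hours was 21.2% against 21.0%.

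Members followed several courses. In all 6 comparisons with controls, 13 of the 33 members were higher, against 6.67% of the 10223 genes tested in all 6: Hk1, Hk2, Gpi1, Pfkl, Pfkp, Aldoa, Gapdh, Pgk1, Pgam1, Eno1, Ldhb, G6pdx and Gys2. Another 8 were higher in 5 of the 6, against 4.39% of all genes, and of these Pkm, Ldha, Pgd, Rpia, Rpe, Gbe1 and Ppp1r3b lacked a call after 6 hours and Slc2a4 after 3 days. Pfkm, Pfkfb1 and Pygb were lower in all 6, which makes 3 of 33 against 6.08%. Taldo1, Tkt and Pygl were lower after 6 hours and higher after 5 days, and calls in both directions were found for 3.07% of all genes. Ppp1r3c was called in none. The group mean was highest after 5 days for 15 of the 36 members, after 6 hours for 6 and in RT controls for 4, and it was lowest in RT controls for 21 and after 6 hours for 10. These counts include Aldoc, Pfkfb2 and Pfkfb4, which did not pass the count filter, and Aldoc is among the members highest in RT controls. The matching shares over all genes were not computed, so these counts have no background.

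**Figure D2:**
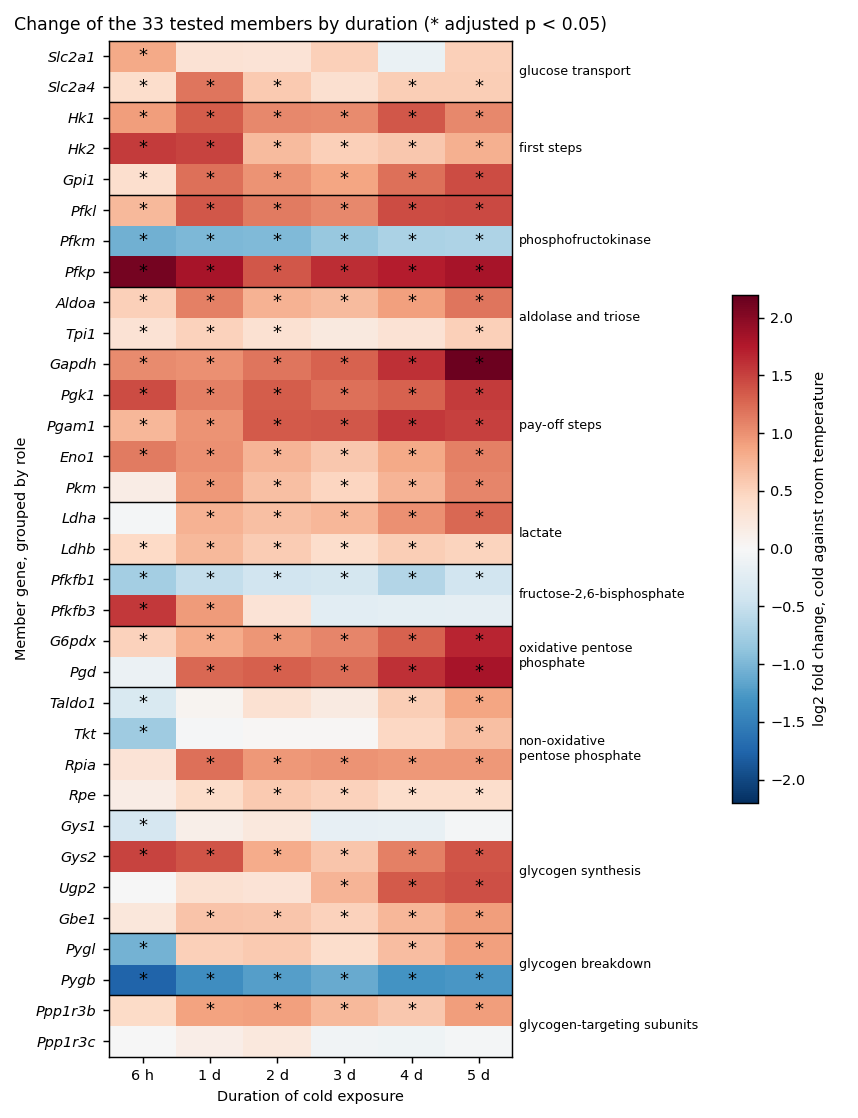
Log2 fold change of the 33 tested members (rows, grouped by role) in each duration of cold exposure against RT controls (columns), with 5 mice per group and red for higher, blue for lower. Stars mark adjusted p below 0.05, and the pale or blue first column of Ldha, Pgd, Tkt, Taldo1, Pygl and Ugp2 turns red by 5 days.

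RefSeq promoter sequences (build GRCm38.p6) were given for 33 of the 36 members, among them 250 bases before each start and 50 after it, and none was at hand for Gys2, Ppp1r3b and Slc2a4. The letters ACGTG, the core recognised by hypoxia-inducible factors and shared by the E-box CACGTG, were searched on both strands in the first promoter listed for each gene. They occurred in 15 of 33 member promoters (45.5%), in 19.7% of 27025 promoters in all, and in 26.3% of the 8615 promoters whose gene was tested in at least 1 comparison. CACGTG itself occurred in 12.1% of member promoters and in 10.4% of those of tested genes. TGACG, the core of cAMP response elements, occurred in 30.3% and 32.8%, TNAAGGTCA, the site of estrogen-related receptors, in 3.0% and 0.6%, and GGGNGGG, which overlaps the GC box, in 81.8% and 68.9%. A match describes these letters only.

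The 250 bases before the start of 4 members that were higher in at least 5 comparisons are shown 5′ to 3′ along the gene's strand, with ACGTG or its reverse complement in capitals. The 4 are examples only, and over the full 300 bases 45.5% of the first listed member promoters hold a match. Of the 4, Ldha has the most matches, with CACGTG in 2 places, and its first listed start lies within the annotated gene, Hk2 and Pgk1 have 2 each, and Pfkp, the member with the largest change after 6 hours, has none.
Ldha (chr7:46845554-46845803, plus strand): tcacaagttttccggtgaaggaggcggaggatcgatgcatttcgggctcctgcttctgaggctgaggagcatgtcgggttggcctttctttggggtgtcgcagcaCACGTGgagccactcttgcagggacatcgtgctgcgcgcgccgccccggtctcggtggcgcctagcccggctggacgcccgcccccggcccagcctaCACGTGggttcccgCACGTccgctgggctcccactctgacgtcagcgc
Hk2 (chr6:82774455-82774704, minus strand): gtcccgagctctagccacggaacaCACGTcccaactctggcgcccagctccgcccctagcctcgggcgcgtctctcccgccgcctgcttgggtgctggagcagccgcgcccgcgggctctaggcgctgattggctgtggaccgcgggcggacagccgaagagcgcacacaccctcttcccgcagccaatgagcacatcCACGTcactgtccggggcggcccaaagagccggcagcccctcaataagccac
Pgk1 (chrX:106186850-106187099, plus strand): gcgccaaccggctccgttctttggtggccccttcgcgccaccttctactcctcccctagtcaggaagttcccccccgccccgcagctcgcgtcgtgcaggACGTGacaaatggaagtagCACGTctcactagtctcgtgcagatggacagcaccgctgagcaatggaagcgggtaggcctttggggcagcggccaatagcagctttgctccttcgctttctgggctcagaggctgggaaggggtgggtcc
Pfkp (chr13:6648772-6649021, minus strand): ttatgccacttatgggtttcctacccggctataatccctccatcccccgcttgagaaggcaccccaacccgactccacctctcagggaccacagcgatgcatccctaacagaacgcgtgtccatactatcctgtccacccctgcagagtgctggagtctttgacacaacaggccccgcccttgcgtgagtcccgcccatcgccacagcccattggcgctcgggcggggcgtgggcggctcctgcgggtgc

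Of the glucose transporters, Slc2a4 (GLUT4, the insulin-responsive transporter, on chromosome 11 at 69942539 to 69948188 of GRCm38) held 98.0% ± 0.69 (n = 5) of the counts of the pair in RT controls and between 97.4% and 98.9% on average after each cold exposure. Its level was 105, 82.0, 122, 114 and 133 CPM in the 5 controls and 212, 262, 343, 265 and 172 CPM after 1 day, with no overlap between the groups. The log2 fold change was 1.17 (SE 0.17, adjusted p = 5.02e-05) after 1 day and 0.54 (SE 0.12) after 5 days, and it was 0.35 (SE 0.17, adjusted p = 0.125) after 3 days. The level after 1 day was also above that after 6 hours, by 0.77 on the log2 scale (SE 0.15, adjusted p = 0.0021). The 2-day call was lost without RT replicate 2 or 2-day replicates 4 or 5 (log2 fold change 0.40 to 0.54, adjusted p 0.0543 to 0.0659), and library size scaling ended it (0.132) and the 5-day call (0.0699).

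Slc2a1 (GLUT1, the basal transporter found in most cells) was counted at 7 to 16 reads per control mouse and at 10 to 21 after 6 hours. It was called higher only after 6 hours, at 3.93 ± 0.79 CPM against 2.17 ± 0.61 CPM (log2 fold change 0.83, SE 0.29, adjusted p = 0.0272), and the groups overlapped. That call was lost without RT replicates 1 or 3 or 6-hour replicates 2, 3 or 4 (adjusted p 0.051 to 0.0672) and with library size scaling (0.0885), as were the 6-hour calls of Slc2a4 (0.222) and Gpi1 (0.226).

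Of the hexokinase members, which trap glucose as glucose 6-phosphate, most reads came from Hk2 (chromosome 6, 82725025 to 82774454), whose product binds mitochondria and prevails in insulin-sensitive tissues. Hk2 was at 279, 199, 213, 176 and 186 CPM in RT controls and at 578, 570, 627, 595 and 727 CPM after 6 hours, with no overlap. Its log2 fold change was 1.54 (SE 0.12, adjusted p = 2.6e-08) after 6 hours, 1.49 (SE 0.20) at 1 day, 0.69 at 2 days, 0.52 at 3 days, 0.60 at 4 days and 0.79 (SE 0.14, adjusted p = 0.000206) at 5 days. Between 6 hours and 5 days it fell by 0.75 on the log2 scale (SE 0.12, adjusted p = 4.84e-05), and every 5-day mouse was below every 6-hour mouse. The 2-day call was lost without RT replicates 2, 3, 4 or 5 or 2-day replicate 4 (log2 fold change 0.41 to 0.69, adjusted p 0.051 to 0.0746), and the 3-day call without RT replicates 2, 3, 4 or 5 or 3-day replicates 2, 3 or 5 (0.32 to 0.54, adjusted p 0.0631 to 0.162). Library size scaling ended both calls (adjusted p 0.0941 and 0.126).

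Hk1, the housekeeping hexokinase, was higher at all durations, with log2 fold changes between 0.92 (SE 0.16) after 6 hours and 1.36 (SE 0.15) after 4 days. Its 5 control mice lay between 8.25 and 10.7 CPM, and all 30 cold-exposed mice lay above them, from 11.8 CPM upwards. Hk2 rose more than Hk1 after 6 hours and less than Hk1 after 4 days. The share of Hk1 in the pair was accordingly 4.37% ± 0.58 in controls, 2.85% ± 0.59 after 6 hours and 7.17% ± 1.43 after 4 days. Gpi1, the isomerase that makes fructose 6-phosphate, was higher by 0.37 (SE 0.12) after 6 hours and by 1.44 (SE 0.14, adjusted p = 5.48e-07) after 5 days, when it reached 522 ± 96.6 CPM against 192 ± 35.3 CPM. Its level after 5 days was above that after 6 hours by 1.07 (SE 0.12, adjusted p = 7.41e-07).

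Phosphofructokinase commits fructose 6-phosphate to glycolysis and is encoded by 3 members that moved in opposite directions. Pfkp (the platelet type, chromosome 13, 6579768 to 6648777) was at 42.2, 31.9, 43.0, 30.4 and 28.4 CPM in RT controls and at 147, 155, 162, 168 and 139 CPM after 6 hours. The lowest 6-hour mouse was above the highest control by a factor of more than 3, and the log2 fold change was 2.11 (SE 0.12, adjusted p = 8.79e-10). It stayed higher by 1.37 (SE 0.16) to 1.82 (SE 0.15) from 1 to 5 days, with no overlap with controls at any duration. After 5 days Pfkp was below its 6-hour level by a log2 fold change of -0.30 (SE 0.10, adjusted p = 0.0222), a call lost without 6-hour replicate 4 or 5-day replicate 2 (adjusted p 0.0561 and 0.0582).

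Pfkl (the liver type) rose more slowly, by 0.71 (SE 0.16, adjusted p = 0.00197) after 6 hours and 1.45 (SE 0.17, adjusted p = 2.64e-06) after 5 days, from 105 ± 31.7 CPM to 288 ± 44.8 CPM. The further step between 6 hours and 5 days was 0.74 (SE 0.12, adjusted p = 4.74e-05). Pfkm (the muscle type) was lower at all durations, by a log2 fold change of -1.05 (SE 0.18, adjusted p = 0.000142) after 6 hours, -0.995 after 1 day and -0.68 (SE 0.20, adjusted p = 0.00997) after 5 days. It was at 30.8, 18.7, 36.01, 32.7 and 33.7 CPM in the controls and at 15.8, 17.1, 18.6, 11.8 and 11.3 CPM after 6 hours. Pfkm made up 18.2% ± 4.90 of phosphofructokinase counts in controls (range 13.8% to 25.5%) and between 3.71% and 4.95% on average at every cold duration, with no mouse above 6.67%. Pfkp went from 20.8% ± 1.78 in controls to 45.0% ± 1.86 after 6 hours and 28.8% ± 2.06 after 5 days, and Pfkl from 60.9% ± 4.94 to 50.7% ± 2.77 and 66.8% ± 2.01.

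Skeletal muscle markers stood in part beside Pfkm. Of the 12 markers, 1 was called lower at 6 hours (21.0% of all genes), 2 at 2 days (14.7%), 2 at 3 days (15.5%) and 6 at 5 days (18.6%). None was called lower at 1 or 4 days, and none was called higher at any duration. The control with the lowest Pfkm (18.7 CPM) had the lowest muscle sum of the controls (155 CPM), and the 4-day mouse with the highest Pfkm (32.7 CPM) had the highest sum of its group (1127 CPM). The control with the highest muscle sum (1348 CPM) had Pfkm at 30.8 CPM, below the 33.7 CPM of a control with a sum of 362 CPM. In the 1-day mouse with the highest muscle sum of all (1454 CPM), Pfkm was at 14.0 CPM, below every control. Muscle RNA in these pads and its part in the Pfkm change was not tested. The 4-day Pfkm call was lost without RT replicate 3 or 4-day replicates 1, 2 or 3 (log2 fold change -0.64 to -0.57, adjusted p 0.0515 to 0.0644).

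**Figure D3:**
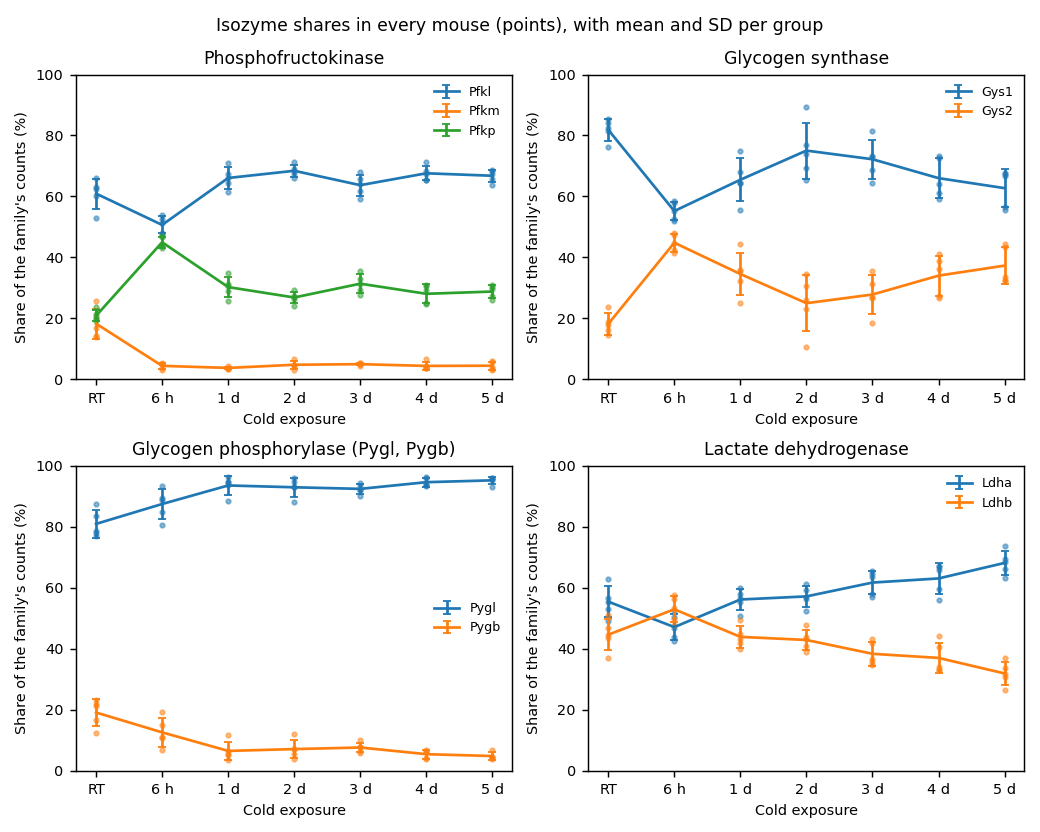
Share of each isozyme in the summed counts of its family (y axis, percent) in RT controls and each duration of cold (x axis), with a point per mouse and lines and bars for the mean and SD of 5 mice. Pfkm drops from 18.2% to 4.39% within 6 hours, Gys2 rises from 18.1% to 44.8%, Pygb drops from 19.1% of the sum with Pygl in controls to 4.76% after 5 days and Ldha rises from 47.1% after 6 hours to 68.1% after 5 days.

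The bifunctional enzymes of the Pfkfb family make and remove fructose 2,6-bisphosphate, the strongest activator of phosphofructokinase, and Pfkfb3 encodes the form with the highest kinase activity. Pfkfb3 (chromosome 2, 11471433 to 11554077) was at 290, 281, 165, 216 and 148 CPM in controls and at 756, 592, 615, 633 and 693 CPM after 6 hours, again with no overlap. The change was transient. The log2 fold change was 1.56 (SE 0.16, adjusted p = 5.01e-07) after 6 hours, 0.94 (SE 0.17, adjusted p = 0.0004) after 1 day and 0.31 (SE 0.25, adjusted p = 0.383) after 2 days, and it lay between -0.23 and -0.19 from 3 to 5 days, where no test was passed. Directly compared, Pfkfb3 was lower after 1 day than after 6 hours by a log2 fold change of -0.63 (SE 0.11, adjusted p = 0.000854) and lower after 5 days than after 6 hours by -1.75 (SE 0.12, adjusted p = 1.71e-09).

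Pfkfb1, the form known from liver and muscle, was lower in all 6 comparisons, by log2 fold changes between -0.75 (SE 0.12, adjusted p = 7.54e-05) after 6 hours and -0.38 (SE 0.13, adjusted p = 0.0347) after 3 days. Its share of the family's counts was 13.4% ± 4.50 in controls, 2.85% ± 0.34 after 6 hours and 11.0% ± 1.89 after 5 days, while that of Pfkfb3 was 85.5% ± 4.93, 96.9% ± 0.33 and 88.2% ± 1.79. Only the 6-hour and 4-day calls of Pfkfb1 held whichever mouse was left out. The others were lost without RT replicates 3 or 5 or 1-day replicates 3, 4 or 5 (adjusted p 0.0526 to 0.0768), without RT replicate 3 or 2-day replicate 3 (0.0522 and 0.0607), without RT replicates 2, 3, 4 or 5 or 3-day replicates 1, 2 or 3 (0.0522 to 0.091), and without RT replicate 3 or 5-day replicates 1 or 5 (0.0583 to 0.0653), with log2 fold changes between -0.51 and -0.28. Pfkfb2 and Pfkfb4 had at most 15 and 22 reads in any mouse and each at most 0.71% of the family's counts in any group mean.

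Aldolase splits the hexose into a pair of triose phosphates, which triose phosphate isomerase interconverts. Aldoa (chromosome 7, 126795234 to 126800751) had the highest counted level of the members in every group, though the counts of some others, such as Gapdh, are uncertain. It was at 1432, 899, 1175, 1046 and 940 CPM in controls and at 2388, 2077, 2362, 3166 and 2427 CPM after 5 days, all above the controls, with a log2 fold change of 1.17 (SE 0.14, adjusted p = 3.46e-06). It was higher at all durations, by 0.53 (SE 0.12, adjusted p = 0.00205) after 6 hours and by 1.11 (SE 0.16) after 1 day. Aldoc, the brain type, had between 1 and 12 reads per control mouse and between 0 and 8 per cold-exposed mouse, and was not tested. Tpi1, the isomerase, was higher by 0.31 (SE 0.11, adjusted p = 0.0242) after 6 hours and 0.52 (SE 0.12, adjusted p = 0.00259) after 5 days. Its 6-hour call was lost without RT replicate 2 (0.23, adjusted p = 0.062), and its 2-day call (0.34, adjusted p = 0.0446) without RT replicates 2, 4 or 5 or 2-day replicates 2, 3 or 5 (0.24 to 0.34, adjusted p 0.0733 to 0.127). All 4 calls of Tpi1 were lost with library size scaling (adjusted p 0.0638 to 0.521).

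The steps from glyceraldehyde phosphate to pyruvate return ATP. After 6 hours 4 of their 5 members were higher, all but Pkm, against 21.5% of all genes tested, and after 5 days all 5 were, against 20.2%. Gapdh, the dehydrogenase of these steps (chromosome 6, 125161715 to 125166467), was at 20.5, 17.9, 26.4, 10.4 and 18.9 CPM in controls and at 36.8, 83.8, 60.9, 125 and 112 CPM after 5 days. Its log2 fold change grew from 1.05 (SE 0.22, adjusted p = 0.000937) after 6 hours to 2.16 (SE 0.27, adjusted p = 7.29e-06) after 5 days, and the difference between these durations was 1.11 (SE 0.25, adjusted p = 0.0014). Of the 50-base words in the last 300 bases of its longest annotated transcript, 36.3% also occur in transcripts of 5 other genes, so its count is uncertain.

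Pgk1, the first ATP-yielding kinase, was counted at a low level (4.44 ± 0.73 CPM in controls) and higher by 1.10 to 1.54 at all durations, with all 30 cold-exposed mice above all controls. Of the words at its end, 0.0% also occur in transcripts of other genes. The annotation names 2 Pgk1 pseudogenes, and likewise 2 each for Aldoa, Gapdh, Pgam1 and Ldha. Reads may have been assigned to pseudogenes or dropped with them, so the Pgk1 count is uncertain. The same may hold for the other members with named pseudogenes. Pgam1, the mutase, climbed from 0.72 (SE 0.18) after 6 hours to 1.56 (SE 0.15, adjusted p = 6.01e-07) after 4 days, when its 5 mice lay between 31.8 and 34.9 CPM against 8.91 to 16.3 CPM in controls. Enolase Eno1 was higher by 1.13 (SE 0.14, adjusted p = 6.31e-06) after 6 hours, 0.59 (SE 0.17) after 3 days and 1.10 (SE 0.15) after 5 days, and 90.0% of the words at its end are shared with Eno1b, so reads of the 2 genes may have been exchanged or dropped. Its 2-day call was lost without RT replicates 2, 4 or 5 or 2-day replicates 3, 4 or 5 (log2 fold change 0.61 to 0.73, adjusted p 0.0526 to 0.0728) and with library size scaling (0.0842). Pkm, which encodes the pyruvate kinase forms outside liver, was at 0.16 (SE 0.13, adjusted p = 0.335) after 6 hours and then higher by 0.47 to 1.07, reaching 756 ± 141 CPM after 5 days against 357 ± 58.6 CPM.

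Lactate dehydrogenase interconverts pyruvate and lactate, and its subunits Ldha and Ldhb followed different courses. Ldha (chromosome 7, 46841475 to 46855627) was at 324, 201, 328, 199 and 216 CPM in controls and at 216, 193, 301, 248 and 283 CPM after 6 hours, where the groups overlapped and the log2 fold change was -0.05 (SE 0.16, adjusted p = 0.816). After 5 days it was at 452, 539, 635, 831 and 606 CPM, all above the controls, with a log2 fold change of 1.27 (SE 0.17, adjusted p = 1.32e-05). The step from 6 hours to 1 day was 0.80 (SE 0.16, adjusted p = 0.00188) and that from 6 hours to 5 days 1.32 (SE 0.15, adjusted p = 5.86e-07). Ldhb was higher already after 6 hours, by 0.44 (SE 0.11, adjusted p = 0.00317), was highest after 1 day (0.72, SE 0.13), and was higher by 0.48 (SE 0.12) after 5 days.

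As a share of the pair, Ldha was 55.4% ± 5.08 in controls, 47.1% ± 4.22 after 6 hours and 68.1% ± 3.85 after 5 days, when its lowest mouse (63.2%) was just above the highest control (62.9%). The 2-day call of Ldha was lost without RT replicates 2, 4 or 5 or 2-day replicates 4 or 5 (log2 fold change 0.53 to 0.61, adjusted p 0.065 to 0.0775) and with library size scaling (0.0953), and the 3-day call of Ldhb without RT replicates 1, 2, 4 or 5 or 3-day replicates 4 or 5 (0.31 to 0.40, adjusted p 0.0561 to 0.0882). With library size scaling Ldhb was called only at 1 day and 4 days (adjusted p at the others 0.0613 to 0.135).

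The oxidative branch of the pentose phosphate pathway makes NADPH in steps catalysed by G6pdx and Pgd. Pgd (6-phosphogluconate dehydrogenase, chromosome 4, 149149991 to 149166771) was at 160, 68.9, 104, 91.6 and 82.2 CPM in controls and at 101, 74.4, 109, 85.3 and 97.0 CPM after 6 hours (log2 fold change -0.14, SE 0.17, adjusted p = 0.556). From 1 day on, no cold-exposed mouse overlapped with the controls, all lying above them. After 5 days the values were 363, 267, 391, 412 and 349 CPM, and the log2 fold change was 1.81 (SE 0.18, adjusted p = 4.71e-07). Pgd had the largest difference between 5 days and 6 hours of all members, 1.95 (SE 0.13, adjusted p = 5.89e-10), and 1.38 (SE 0.13, adjusted p = 1.93e-06) of it was present after 1 day.

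G6pdx, the rate-limiting dehydrogenase, was higher by 0.50 (SE 0.15, adjusted p = 0.0132) after 6 hours and the fold change was larger at each longer duration, 0.82, 0.97, 1.08, 1.29 and 1.67 (SE 0.15, adjusted p = 1.83e-07). Its level went from 18.6 ± 3.67 CPM in controls to 59.4 ± 10.9 CPM after 5 days, when it was also 1.17 (SE 0.14, adjusted p = 1.78e-06) above the 6-hour level. With library size scaling its 6-hour call was lost (0.31, adjusted p = 0.102).

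In the non-oxidative branch, which returns pentoses to glycolysis, isomerase and transferases differed. Rpia (ribose 5-phosphate isomerase, chromosome 6, 70765720 to 70792232) was at 11.2, 12.9, 13.3, 7.75 and 9.83 CPM in controls and at 28.9, 24.7, 29.1, 28.2 and 15.0 CPM after 1 day, with a log2 fold change of 1.21 (SE 0.19, adjusted p = 0.000116). It stayed higher by 0.95 to 0.99 from 2 to 5 days, with all 25 mice from 1 day on above all controls. Rpe, the epimerase, was higher by 0.39 to 0.57 from 1 day on. Only the 2-day and 3-day calls of Rpe held whichever mouse was left out. The 1-day call was lost without RT replicates 2, 4 or 5 or 1-day replicates 1, 2 or 3 (0.33 to 0.40, adjusted p 0.0518 to 0.0826), the 4-day call without RT replicates 4 or 5 (0.32 and 0.36, adjusted p 0.059 and 0.0549), and the 5-day call without RT replicates 2, 4 or 5 or 5-day replicates 2 or 4 (0.32 to 0.36, adjusted p 0.0512 to 0.0706). With library size scaling only the 3-day call of Rpe was left (adjusted p at the others 0.0631 to 0.354).

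Tkt (transketolase) and Taldo1 (transaldolase) were lower after 6 hours and higher after 5 days. Tkt was at 648, 214, 659, 437 and 401 CPM in controls, at 352, 202, 243, 321 and 270 CPM after 6 hours and at 860, 544, 948, 889 and 504 CPM after 5 days. The controls spread widely, and they overlapped with both cold groups, while every 5-day mouse was above every 6-hour mouse. The log2 fold change was -0.79 (SE 0.23, adjusted p = 0.00952) after 6 hours, between -0.02 and 0.03 from 1 to 3 days and 0.66 (SE 0.24, adjusted p = 0.0348) after 5 days, and the step from 6 hours to 5 days was 1.45 (SE 0.17, adjusted p = 1.39e-06). The 5-day call of Tkt was lost in DESeq2 (adjusted p = 0.103), with library size scaling (0.145), and without RT replicates 2, 4 or 5 or 5-day replicates 1, 3 or 4 (log2 fold change 0.48 to 0.63, adjusted p 0.0597 to 0.0851).

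Taldo1 went from 484 ± 80.8 CPM in controls to 388 ± 45.2 CPM after 6 hours (log2 fold change -0.34, SE 0.12, adjusted p = 0.0259) and 886 ± 152 CPM after 5 days (0.87, SE 0.13, adjusted p = 5.79e-05). Taldo1 was called higher in 2 of the 6 comparisons with controls, that after 5 days among them. Its step from 6 hours to 5 days was 1.20 (SE 0.12, adjusted p = 2.09e-07). The 6-hour call was lost without RT replicates 1 or 3 or 6-hour replicate 2 (-0.32 to -0.24, adjusted p 0.051 to 0.0866). The step from 6 hours to 1 day (0.39, adjusted p = 0.0389) was lost with each mouse left out except 1-day replicate 5 (0.32 to 0.41, adjusted p 0.0541 to 0.112).

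**Figure D4:**
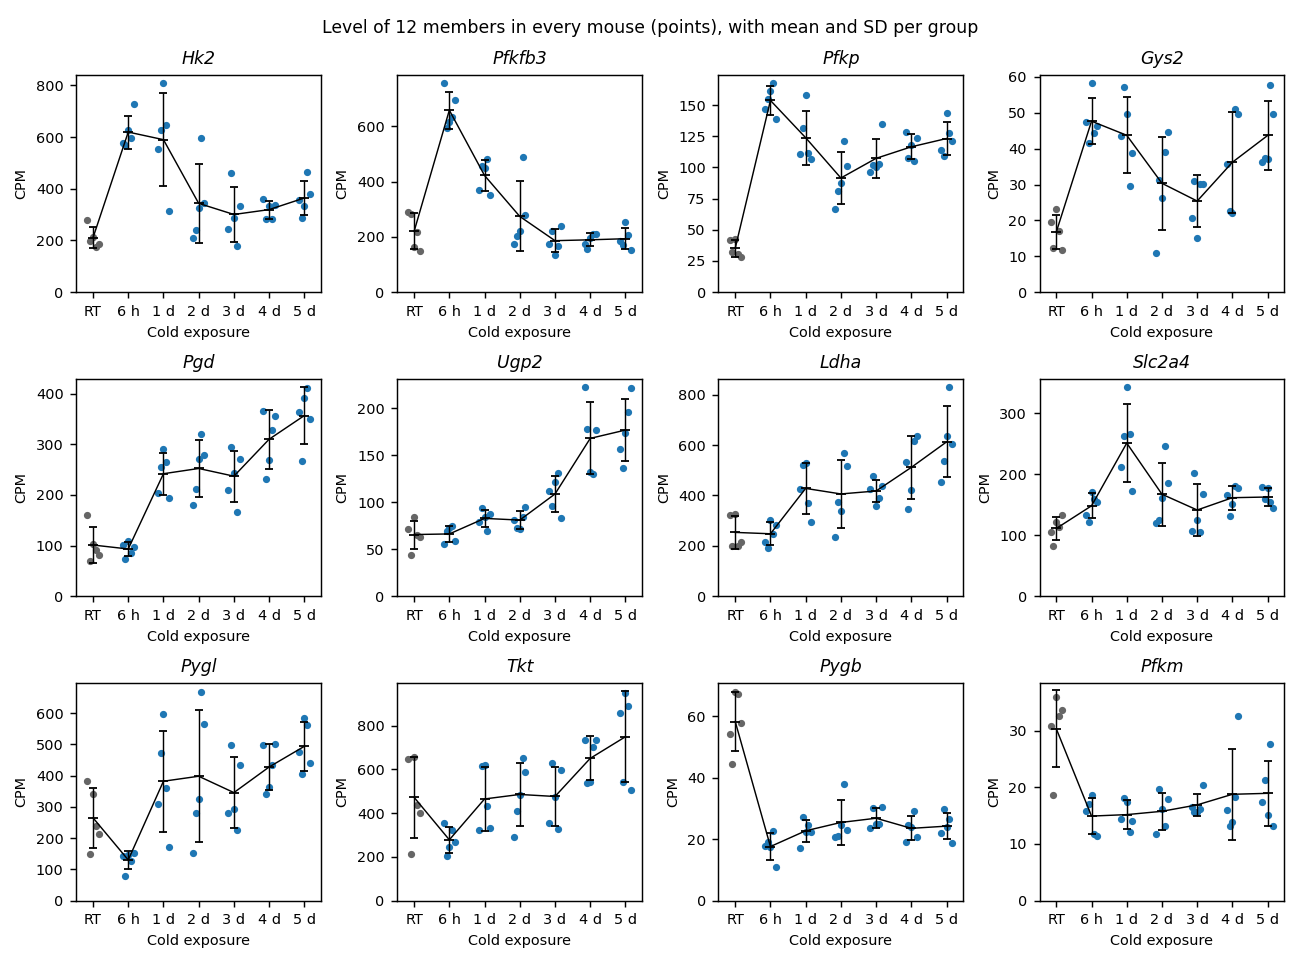
Level (y axis, CPM) of 12 members in RT controls (grey points) and after each duration of cold (blue points, x axis), 5 mice per group, with lines and bars for the mean and SD. Hk2, Pfkfb3 and Pfkp are highest after 6 hours, Pgd, Ugp2 and Ldha climb to 357, 177 and 613 CPM after 5 days, Pygl and Tkt dip to 130 and 278 CPM after 6 hours, and Pygb and Pfkm lie below their RT mean at every duration.

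Glycogen is built from UDP-glucose made by Ugp2, extended by glycogen synthase and branched by Gbe1. Of the synthase genes, Gys2 (the liver type, chromosome 6, 142422613 to 142473109) was at 19.6, 12.3, 23.1, 17.2 and 11.8 CPM in controls and at 47.6, 41.7, 58.3, 44.4 and 46.3 CPM after 6 hours, with no overlap and a log2 fold change of 1.49 (SE 0.16, adjusted p = 1.14e-06). The log2 fold change was 1.39 (SE 0.19) at 1 day, dropped to 0.82 (SE 0.29) at 2 days and 0.61 (SE 0.21) at 3 days, and stood at 1.10 (SE 0.24) and 1.38 (SE 0.18, adjusted p = 1.17e-05) at 4 and 5 days. The 2-day call was lost without RT replicates 2, 4 or 5 or 2-day replicates 2, 3, 4 or 5 (0.65 to 0.87, adjusted p 0.051 to 0.11), and the 3-day call without RT replicates 2, 4 or 5 or 3-day replicates 2, 4 or 5 (0.50 to 0.61, adjusted p 0.0678 to 0.0961). Library size scaling ended both (adjusted p 0.0976 and 0.0827).

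Gys1, the synthase of muscle and most tissues, was called lower after 6 hours only, at 58.7 ± 7.19 CPM against 74.6 ± 8.27 CPM (log2 fold change -0.37, SE 0.11, adjusted p = 0.0128), and was between -0.18 and 0.23 at the other durations. The share of Gys2 in the synthase counts was therefore 18.1% ± 3.58 in controls (14.5% to 23.9%), 44.8% ± 2.94 after 6 hours (41.5% to 48.1%), 25.0% ± 9.17 after 2 days and 37.3% ± 6.16 after 5 days. Gys1 was above its 6-hour level after 1 day by 0.49 (SE 0.11, adjusted p = 0.00507) and after 5 days by 0.32 (SE 0.11, adjusted p = 0.0249), the latter lost without 6-hour replicate 2 or 5-day replicates 2 or 3 (0.25 to 0.30, adjusted p 0.0517 to 0.0901) and with library size scaling (0.0606).

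Ugp2 was a late riser. It was at 72.0, 43.6, 84.5, 65.7 and 62.6 CPM in controls, at 55.2, 69.5, 73.1, 74.9 and 58.9 CPM after 6 hours and at 157, 136, 173, 196 and 222 CPM after 5 days. The log2 fold change was -0.01 (SE 0.14) after 6 hours, 0.33 and 0.29 after 1 and 2 days with no call, 0.74 (SE 0.16, adjusted p = 0.00166) after 3 days, 1.35 (SE 0.17) after 4 days and 1.42 (SE 0.16, adjusted p = 1.44e-06) after 5 days. All 4-day and 5-day mice lay above all controls. Gbe1 was at 0.24 (SE 0.13, adjusted p = 0.148) after 6 hours and higher by 0.51 to 0.91 from 1 day on, with 376 ± 63.0 CPM after 5 days against 199 ± 34.3 CPM. Its 2-day call was lost with library size scaling (0.36, adjusted p = 0.0505).

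Glycogen phosphorylase releases glucose 1-phosphate, and its forms Pygb and Pygl were both lower after 6 hours. Pygm, the muscle form, is no member and was singled out after its values were seen. It was at 14.2 ± 9.45 CPM in controls and 9.97 ± 7.84 CPM after 6 hours and passed no test at any duration. Pygb (the brain type, chromosome 2, 150786735 to 150831758) was at 54.2, 44.4, 67.7, 67.1 and 57.7 CPM in controls and at 17.9, 19.0, 17.3, 22.7 and 11.0 CPM after 6 hours, a log2 fold change of -1.76 (SE 0.16, adjusted p = 1.87e-07). It stayed lower by -1.37 to -1.11 at the longer durations, and all 30 cold-exposed mice were below all controls, the highest being at 37.9 CPM. After 5 days it was above its 6-hour level by 0.49 (SE 0.17, adjusted p = 0.0337), a call lost without 6-hour replicates 1, 3 or 5 or 5-day replicates 2 or 4 (0.34 to 0.49, adjusted p 0.0544 to 0.105).

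Pygl (the liver type) was at 383, 148, 341, 240 and 213 CPM in controls, at 143, 79.5, 147, 128 and 152 CPM after 6 hours and at 477, 404, 586, 561 and 442 CPM after 5 days. All but 1 of the 6-hour mice lay below all controls, and all 5-day mice lay above them. The log2 fold change was -1.05 (SE 0.21, adjusted p = 0.000688) after 6 hours, between 0.39 and 0.58 with no call from 1 to 3 days, and 0.89 (SE 0.19, adjusted p = 0.00126) after 5 days. Pygl was also called higher after 4 days. The step from 6 hours to 1 day was 1.57 (SE 0.24, adjusted p = 0.000256) and that from 6 hours to 5 days 1.94 (SE 0.15, adjusted p = 3.6e-09). The share of Pygl in the summed counts of Pygl and Pygb was 81.0% ± 4.47 in controls, 87.5% ± 4.79 after 6 hours and 95.2% ± 1.21 after 5 days.

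The targeting subunits bring protein phosphatase to glycogen. Ppp1r3b (chromosome 8, 35375739 to 35388139) was at 48.4, 23.4, 49.3, 51.3 and 40.8 CPM in controls and at 70.9, 59.6, 98.7, 106 and 68.3 CPM after 5 days, all above the controls, with a log2 fold change of 0.91 (SE 0.19, adjusted p = 0.000943). It was at 0.43 (SE 0.20, adjusted p = 0.0915) after 6 hours and higher at every later duration. The 4-day call was lost without RT replicates 2 or 5 or 4-day replicates 1 or 5 (log2 fold change 0.44 to 0.59, adjusted p 0.0551 to 0.0901) and with library size scaling (0.0846), and the step from 6 hours to 5 days (0.48, adjusted p = 0.0356) without 6-hour replicates 2 or 5 or 5-day replicates 3 or 4 (0.34 to 0.44, adjusted p 0.0742 to 0.122). Ppp1r3c had log2 fold changes between -0.10 and 0.23 with standard errors of 0.14 to 0.20 and passed no test.

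The first hours of cold were compared directly with later exposure. After 1 day, 12 of 33 members were above their 6-hour level, against 9.19% of the 10181 genes tested, and 1, Pfkfb3, was below it, against 7.75%. After 5 days, 18 members were above their 6-hour level, against 19.0% of 10294 genes, and Hk2, Pfkp and Pfkfb3 were below it, against 16.9%. The members with the largest steps up by 5 days were Pgd (1.95), Pygl (1.94), Tkt (1.45), Ugp2 (1.43) and Ldha (1.32), all without overlap between the groups. Macrophage markers moved in the same comparison, 7 of 8 being higher after 5 days than after 6 hours, with a summed level of 88.8 to 102 CPM after 6 hours and 117 to 408 CPM after 5 days. Of the endothelial markers, 2 of 5 were lower, from a sum of 415 to 501 CPM after 6 hours to 221 to 373 CPM after 5 days. Markers of proliferating cells (4 genes, of which 2 were tested and both higher) summed to between 2.63 and 5.20 CPM after 6 hours and between 10.9 and 40.1 CPM after 5 days. The part of these cells in the members' steps was not tested.

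**Figure D5:**
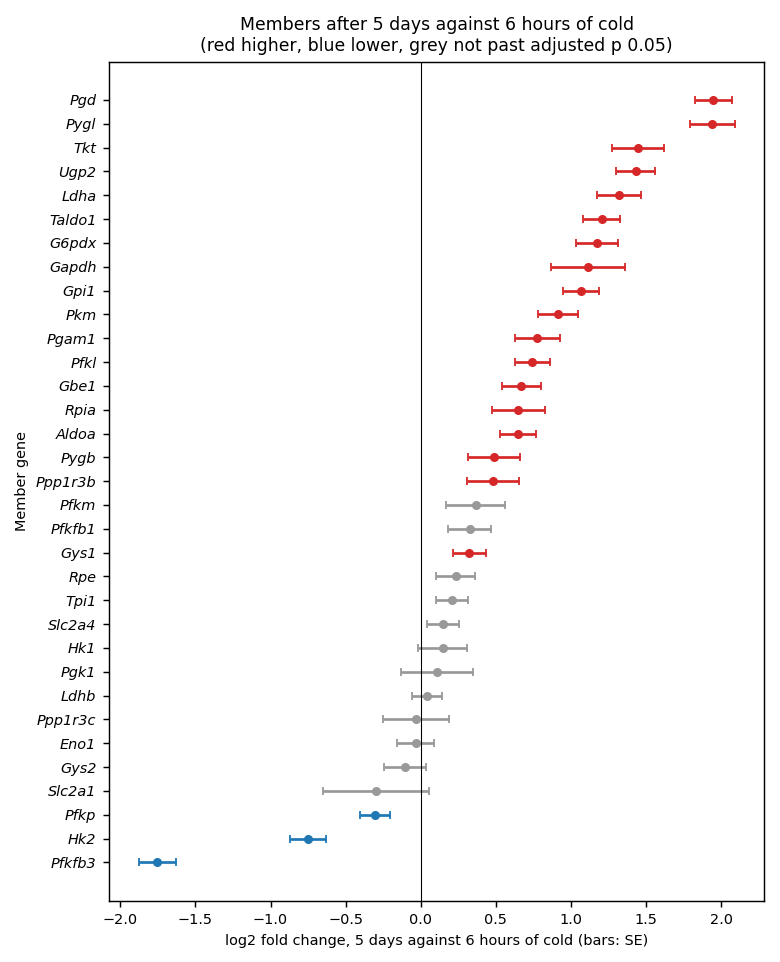
Log2 fold change of each of the 33 tested members (rows) after 5 days against 6 hours of cold (x axis), with bars for the standard error and 5 mice per group. The 18 members in red lie to the right of 0, up to 1.95 for Pgd, and Pfkfb3 (-1.75), Hk2 (-0.75) and Pfkp (-0.30) in blue lie to the left.

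Genes around these pathways that are not among the 36 members were counted from lists of their own. Of 20 other glycolysis and hexose genes, 7 passed the filter after 5 days, and 1 was higher and 1 lower, where 20.2% and 18.6% of all genes were, so that this list lay near the background. The higher gene was Tigar, which encodes a fructose bisphosphatase, at a log2 fold change of 1.18 (SE 0.13, adjusted p = 1.34e-06), and the lower was Eno3, the muscle enolase, at -1.30 (SE 0.34, adjusted p = 0.00536). In that comparison 6 of the 12 muscle markers were lower as well, with sums of 259 to 391 CPM against 155 to 1348 CPM, and their part in the Eno3 value was not tested. Galm, the aldose epimerase, was lower after 6 hours (-0.93, SE 0.15, adjusted p = 7.21e-05). Of 8 other pentose phosphate genes, 4 were tested after 5 days and 2 were lower (background 18.6%). These were Pgls, the lactonase between G6pdx and Pgd, which was lower at all 6 durations (-0.78, SE 0.12, after 1 day), and Prps1, which makes phosphoribosyl pyrophosphate (-0.83, SE 0.16). H6pd, the dehydrogenase of the endoplasmic reticulum, was lower after 6 hours (-0.48, SE 0.11, adjusted p = 0.00255).

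Of 21 other glycogen genes, 19 were tested after 6 hours, with 3 higher and 7 lower (background 21.5% and 21.0%), and 18 after 5 days, with 6 higher and 3 lower (20.2% and 18.6%). The higher count at 6 hours and the lower count at 5 days were thus close to the shares of all genes. Phkg1, the catalytic subunit of muscle phosphorylase kinase, fell by 2.15 on the log2 scale (SE 0.36, adjusted p = 0.000131) after 5 days, when it was at 1.08 ± 0.54 CPM against 4.91 ± 1.39 CPM. The same 6 of 12 muscle markers were lower in that comparison, and their part in the Phkg1 value was not tested either. Epm2a, the glycogen phosphatase laforin, was at 0.848 ± 0.562 CPM after 6 hours against 3.54 ± 0.41 CPM (log2 fold change -2.10, SE 0.37, adjusted p = 0.000181), and Nhlrc1, the ubiquitin ligase that binds laforin, was higher (1.26, SE 0.35, adjusted p = 0.00747).

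In the glycerol phosphate branch, 3 of 5 genes were higher at 6 hours and 1 was lower, and the counts were the same at 5 days. The shares of all genes were 21.5% and 21.0% at 6 hours and 20.2% and 18.6% at 5 days, also for the next list. Gk, glycerol kinase, went from 161 ± 79.0 CPM to 1005 ± 55.3 CPM after 6 hours (log2 fold change 2.62, SE 0.24, adjusted p = 1.33e-07), and Gpd1, which makes glycerol 3-phosphate from a glycolytic triose, was higher by 1.35 (SE 0.16, adjusted p = 4.89e-06) after 5 days. Gpd1l was lower after 6 hours (-1.68, SE 0.18, adjusted p = 1.12e-06). Among 14 tested genes of pyruvate fate, the 6-hour comparison had 3 higher and 4 lower, near the background, and the 5-day comparison 8 higher and 2 lower. Slc16a7, a monocarboxylate transporter, went from 18.7 ± 2.35 CPM to 1.46 ± 1.40 CPM after 5 days (log2 fold change -3.63, SE 0.32, adjusted p = 1.32e-07), while the transporter Slc16a1 was higher after 1 day (1.46, SE 0.15, adjusted p = 2.23e-06) and Mpc2, a subunit of the mitochondrial pyruvate carrier, after 5 days (1.62, SE 0.17, adjusted p = 7.2e-07).

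Of 12 regulators of these pathways, 11 were tested. At 6 hours 2 were higher and 4 lower, against 21.5% and 21.0% of all genes. At 5 days 2 were higher and 2 lower, which is close to the 20.2% and 18.6% of all genes. Irs2, an insulin receptor substrate, was higher after 6 hours (2.15, SE 0.28, adjusted p = 9.97e-06) and had log2 fold changes between -0.19 and 0.36 without a call at the longer durations. Irs1 was lower after 1 day (-1.18, SE 0.19, adjusted p = 0.000161), and Mlx, the partner of carbohydrate response element binding protein, was higher after 6 hours (1.04, SE 0.15, adjusted p = 2.06e-05).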

How the data were processed

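Whole-tissue RNA from iBAT of 35 mice was sequenced from libraries made with a QuantSeq 3′ kit. Per the submitters' processing notes and the paper's methods, the authors aligned reads with STAR 2.6.1d to GRCm38 and made counts per gene with HTSeq 0.11.2. The authors deposited these counts as whole numbers without normalization, one column per mouse, and column names were tied to mice through the duration and number in the labels, with 0 columns left over. The labels do not name litters or batches, and the p-values set differences between groups against the spread between these mice. Of the identifiers, 267 had no symbol. Gene coordinates are from the GENCODE annotation of GRCm38, and promoters from RefSeq.

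The members and all gene lists were chosen with earlier results of these data known. Each comparison was a separate fit in edgeR 4.0.16 (R 4.3.3) with filterByExpr, TMM factors and the quasi-likelihood test, with Benjamini-Hochberg adjustment over all genes tested. Fold changes are edgeR's log2 values. Their SE was derived as the absolute log2 fold change over the square root of the quasi-likelihood F. Members were all named. Values of every mouse are given for the member of each role with the largest called change against RT, and those of Pfkm, Tkt, Ugp2 and Pygl, and further durations of Pgd and Ldha, were added after the values had been seen. Of each neighbouring list, at most the 3 genes with the largest called change are named. Isozyme shares were computed from raw counts and have no test.

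As alternatives, size factors were taken from RLE or from library size alone, mitochondrial genes and Gm42418 were removed, the filter was dropped, all 7 groups were fitted jointly, the replicate number was added as a block, each mouse was left out in turn, and DESeq2 1.42.0 was run with its Wald test. On simulated counts for 5 days against RT (10568 genes, 200 changed), edgeR recovered 188 with 10 false calls. In the data, 20.2% of genes were called higher and 18.6% lower after 5 days. Recovery at such shares was not tested.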

Additional observations from a re-analysis of the deposited data

Results flagged for a closer look

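Single mice stood apart in 9 of the 252 combinations of a member and a group, and chance alone gives about 1 in 20. Lower than the other 4 mice were Hk1 after 6 hours in replicate 4 (11.8 CPM, the next at 18.9 CPM), and Taldo1 (308 CPM, next 404 CPM) and Gys1 (46.3 CPM, next 58.6 CPM) after 6 hours in replicate 2. Higher than the others were Pfkm after 3 days (20.4 CPM, next 16.6 CPM) and after 4 days (32.7 CPM, next 18.3 CPM), both in replicate 5, Pfkp after 3 days in replicate 5 (135 CPM, next 103 CPM), G6pdx after 3 days in replicate 4 (50.4 CPM, next 37.5 CPM), Pygb after 2 days in replicate 4 (37.9 CPM, next 24.5 CPM) and Aldoc after 5 days in replicate 4 (1.57 CPM, next 0.437 CPM).

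The change from RT differed between durations for many members in direct tests of one duration against another, given as log2 differences. Between 1 day and 6 hours these were Pygl (1.57), Pgd (1.38), Rpia (0.89), Gpi1 (0.83), Ldha (0.80), Pkm (0.77), Slc2a4 (0.77), Tkt (0.75), Pfkl (0.64), Aldoa (0.57), Gys1 (0.49), Taldo1 (0.39) and Pfkfb3 (-0.63). Between 5 days and 6 hours they were Pgd (1.95), Pygl (1.94), Tkt (1.45), Ugp2 (1.43), Ldha (1.32), Taldo1 (1.20), G6pdx (1.17), Gapdh (1.11), Gpi1 (1.07), Pkm (0.91), Pgam1 (0.78), Pfkl (0.74), Gbe1 (0.67), Rpia (0.65), Aldoa (0.64), Pygb (0.49), Ppp1r3b (0.48), Gys1 (0.32), Pfkp (-0.30), Hk2 (-0.75) and Pfkfb3 (-1.75).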

How the results depend on the processing

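No called change of a member against RT or against 6 hours turned its direction under any alternative. Of 155 member calls against RT, 27 were lost with library size scaling, which shifted the median of all genes tested to between -0.15 and -0.25 on the log2 scale against RT, 8 with the fit of all 7 groups, 3 without a filter on counts, 1 with RLE size factors and 1 in DESeq2. With library size scaling, 11 members were higher after 6 hours in place of 17, 13 after 2 days in place of 22, 5 were lower after 5 days in place of 3, and 2 were lower after 1 day than after 6 hours in place of 1, and all other counts stayed within 1.5 times. Over all genes, that scaling gave 1342 higher in place of 2280 after 6 hours and 931 in place of 1748 after 2 days. It gave 3347 lower in place of 1998 after 5 days, and 777 in place of 789 after 1 day against 6 hours. In the fits with a replicate block, 8 calls against RT were lost. The replicate block gave 18 higher and 2 lower members at 2 days and 18 and 3 at 3 days. Of all genes, the block called 1525 of 10629 higher and 1332 lower at 2 days, and 1777 of 10827 and 1511 at 3 days. The block also ended 1 call against 6 hours (Taldo1 at 1 day, adjusted p = 0.0689). In no comparison did same-numbered mice all correlate above 0.1 (range -0.239 to 0.144) or all correlate best with their own number, so the numbers were taken as names. Leaving out 1 mouse at a time, 22 of the 155 calls were lost for at least 1 mouse, and the number of members lower after 1 day than after 6 hours ranged from 1 to 2, the latter without 1-day replicate 3. The number of higher members ranged from 16 to 24 at 2 days (22 with all mice) and from 18 to 21 at 3 days (21 with all mice). Over all genes, the number called higher at 2 days then ranged from 1462 to 1760 (1748 with all mice). Of 34 calls against 6 hours, 5 were lost for at least 1 mouse. Slc2a1, with 4 to 26 reads per mouse, had standard errors of 0.29 to 0.41. Differences well above these could go uncalled at this depth, as log2 fold changes of 0.73 to 0.81 did after 6 hours when single mice were left out.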
